A study of Sus scrofa with 5 samples.

Results

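The genes described here are 10 genes of transforming growth factor beta (TGF-beta) signalling in the abdominal aorta of Ossabaw pigs, measured by single-nucleus RNA sequencing. They are the ligands TGFB1, TGFB2 and TGFB3, the receptors TGFBR1, TGFBR2 and TGFBR3, the intracellular mediators SMAD3 and SMAD6, and the CCN family genes CCN1 and CCN2. All 10 were matched by symbol among the 35670 features of the count matrices. They had been chosen with earlier results of these data in view, namely TGFB3 in smooth muscle nuclei and TGFB2 and CCN2 in endothelial nuclei. The diet differences of TGFB3, TGFB2 and CCN2 in those classes are therefore given as descriptions, without a test.

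The 3 pigs of the obese group had eaten a high-fat, high-fructose diet (HF/HFru), and the 2 pigs of the control group a chow diet. All 5 were castrated males that began the diet at 12 months of age, and 1 library was made from each pig. The sample labels state that the diet lasted 6 months and the series text that it lasted 9 months. The labels call the aortae of the obese pigs atherosclerotic and those of the control pigs healthy. With 3 pigs against 2, and all feeding, dissection and library steps nested in the pig, diet and any other difference between these animals cannot be told apart. Nothing in the labels gives a sequencing batch.

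TGF-beta ligands are secreted in a latent form that binds to extracellular matrix and has to be released before it can signal. The released ligand is bound by TGFBR2, the type II receptor, which phosphorylates TGFBR1, the type I receptor. TGFBR3, also called betaglycan, is a co-receptor that presents ligand and on which TGFB2 depends most. TGFBR1 activates SMAD2 and SMAD3, which enter the nucleus with SMAD4, while SMAD6 is an inhibitory SMAD that acts mainly on the bone morphogenetic protein (BMP) branch. CCN1 and CCN2 encode secreted matricellular proteins, and both are transcribed in response to TGF-beta and to YAP and TAZ, the transcriptional co-activators of the Hippo pathway that act through TEAD factors. In the human aorta, inherited mutations of TGFBR1, TGFBR2, SMAD3, TGFB2 and TGFB3 cause thoracic aneurysms.

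The promoters of the genes on which the results turn are shown to set side by side a pair of CCN genes and a pair of ligand genes. Each runs from 250 bases before to 50 bases after the annotated start of the gene, 5′ to 3′ on the gene's strand, in RefSeq's Sscrofa11.1 assembly. TGFB2 lies at chr10:8305886-8306185 on the plus strand, TGFB3 at chr7:99162190-99162489 on the minus strand, CCN1 (CYR61 in RefSeq) at chr4:130395130-130395429 on the minus strand, and CCN2 (CTGF in RefSeq) at chr1:31674148-31674447 on the plus strand. Capitals mark matches, on either strand, to the SMAD motif CAGAC and to the TEAD motif GGAATG.
CCN2: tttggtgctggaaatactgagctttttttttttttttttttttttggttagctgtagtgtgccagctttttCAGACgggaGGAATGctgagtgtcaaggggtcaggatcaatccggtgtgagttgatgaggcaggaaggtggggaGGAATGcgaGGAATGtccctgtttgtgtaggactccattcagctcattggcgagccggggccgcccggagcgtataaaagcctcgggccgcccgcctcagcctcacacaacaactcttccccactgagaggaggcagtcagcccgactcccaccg
CCN1: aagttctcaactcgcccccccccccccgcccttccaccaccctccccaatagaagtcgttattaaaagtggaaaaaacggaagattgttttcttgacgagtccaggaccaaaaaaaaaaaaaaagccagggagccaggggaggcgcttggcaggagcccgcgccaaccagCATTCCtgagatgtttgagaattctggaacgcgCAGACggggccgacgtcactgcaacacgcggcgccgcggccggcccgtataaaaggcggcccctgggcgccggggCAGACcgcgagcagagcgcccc
TGFB2: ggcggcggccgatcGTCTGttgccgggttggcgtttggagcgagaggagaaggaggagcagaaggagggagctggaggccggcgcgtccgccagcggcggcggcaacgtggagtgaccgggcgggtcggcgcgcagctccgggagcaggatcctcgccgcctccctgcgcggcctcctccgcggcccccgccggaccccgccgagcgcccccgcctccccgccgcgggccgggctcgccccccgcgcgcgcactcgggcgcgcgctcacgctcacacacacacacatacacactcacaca
TGFB3: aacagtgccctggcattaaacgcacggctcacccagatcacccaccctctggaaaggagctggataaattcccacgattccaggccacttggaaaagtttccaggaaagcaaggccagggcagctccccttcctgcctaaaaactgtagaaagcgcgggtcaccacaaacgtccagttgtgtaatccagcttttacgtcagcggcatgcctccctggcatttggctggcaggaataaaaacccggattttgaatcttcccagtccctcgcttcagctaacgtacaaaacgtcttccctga

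The CCN2 window held 3 TEAD matches, which began 170, 105 and 96 bases before the start, and 1 SMAD match at 179 bases before it. The CCN1 window held 1 TEAD match 80 bases before the start and 2 SMAD matches, 1 at 47 bases before the start and 1 at 29 bases after it. TGFB2 had 1 SMAD match, 236 bases before the start, and the TGFB3 window held neither motif. The TEAD motif was found in 11.8% of 19556 promoters of the same length and the SMAD motif in 45.0%, so a single SMAD match is common. No match was found in these 4 windows to the AP-1 motif TGANTCA (present in 6.07% of all promoters), the cyclic AMP response element TGACGTCA (2.26%) or the CArG box bound by serum response factor (1.53%). These are matches of letters only, and no binding was measured.

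After filtering, 41986 nuclei remained of 45580 barcodes, and the libraries held 22400089, 35655806 and 29717314 unique molecular identifiers (UMIs, each 1 captured RNA molecule) in obese pigs 1 to 3, against 47724416 and 21516249 in control pigs 1 and 2. Between 66 and 104 barcodes of each library also occurred in another one. Nuclei were clustered and each cluster was named from fixed marker genes, with the ending -like because no annotation by the authors was used. The smooth muscle-like class held 28761 nuclei, the fibroblast-like class 2558 and the endothelial-like class 1263. No gene of the smooth muscle list in the file was at 0 in the smooth muscle-like class, and the same held for the endothelial and fibroblast lists in their own classes. It also held for the endothelial and fibroblast lists in the smooth muscle-like class. The smooth muscle list had no gene at 0 in the endothelial-like class either. The clusters were named from these lists, so none of this bears on the names. Clusters 10, 12 and 17 carried smooth muscle markers but were left unnamed, cluster 12 because 2 classes tied and the others because no class had enough markers. Without them the smooth muscle-like class held 4138, 5450 and 6239 nuclei of obese pigs 1 to 3 and 8811 and 4123 of control pigs 1 and 2, and with them it would hold 4958, 5581 and 7751 in obese and 8876 and 4530 in control pigs. The gene that led the unnamed clusters was GPRC5A in cluster 10, PCK1 in cluster 12 and HSPA6, a heat shock gene, in cluster 17. Cluster 12 held 534 nuclei of obese pig 1, and cluster 17 held 367 of control pig 2. The smooth muscle markers in these 3 clusters therefore do not settle what the nuclei are. Levels are given in CPM, the UMIs of a gene per 1000000 UMIs of all nuclei of a class in 1 pig. Because only the 3′ end of each RNA is counted, levels are compared within a gene and not between genes.

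The genes differed in where they were detected among the named classes, as the mean of the obese and control group means shows. TGFB3 was highest in pericyte-like nuclei at 261 CPM, followed by smooth muscle-like nuclei at 168 CPM, and was at 15.8 CPM in endothelial-like nuclei. TGFB2 was distributed differently, with 419 CPM in endothelial-like, 339.6 CPM in fibroblast-like, 183 CPM in pericyte-like and 69.3 CPM in smooth muscle-like nuclei. TGFB1, the ligand best known from immune cells, was highest in T or NK cell-like nuclei at 197 CPM and lowest in Schwann cell-like nuclei at 17.3 CPM. The pigs' ranges overlapped among the classes at the top of this order for TGFB1, which spanned 159 to 268 CPM in obese and 82.2 to 286 CPM in control T or NK cell-like nuclei, and 54.4 to 307 CPM in obese and 138 to 203 CPM in control B or plasma cell-like nuclei. TGFBR2 and TGFBR3 were highest in Schwann cell-like nuclei, at 635 and 297 CPM, and SMAD6 in endothelial-like nuclei at 461 CPM. The unnamed nuclei were left out of this order. They held 48.7%, 22.9% and 76.4% of all TGFB1 UMIs in obese pigs 1 to 3. In control pigs 1 and 2 they held 20.1% and 24.9%. The classes were defined from the same counts, so these are descriptions and no test was made.

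**Figure D1:**
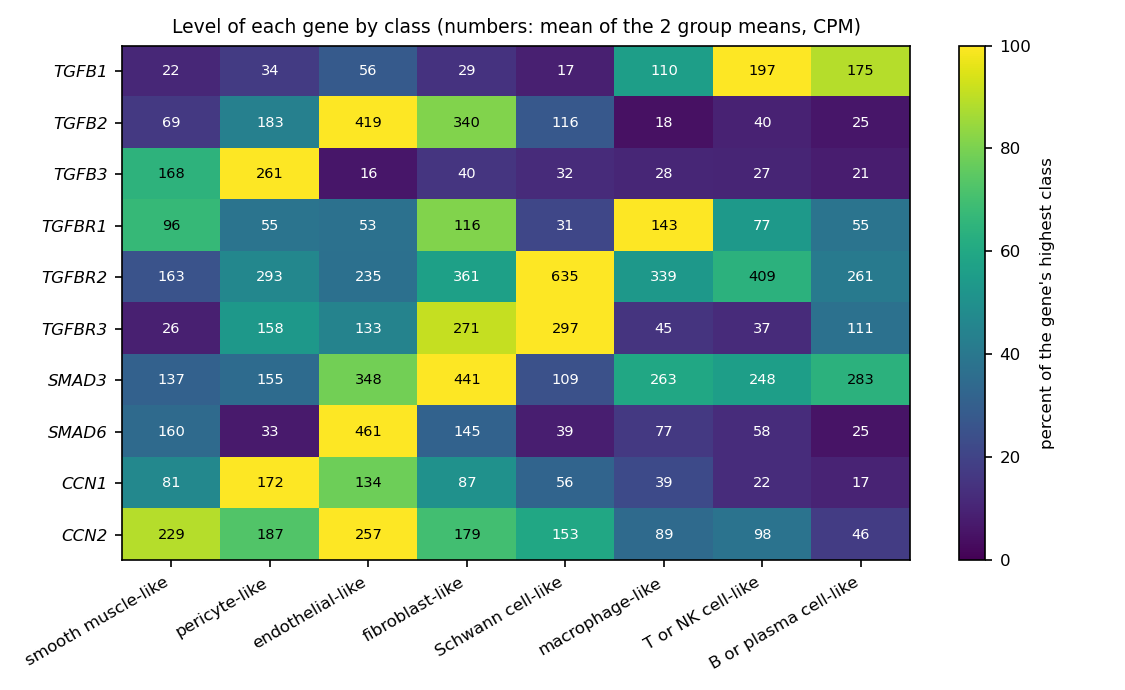
Level of each of the 10 genes in 8 classes of nuclei. Numbers are the mean of the obese and control group means in CPM, and the shade is the percent of the gene's highest class. Unnamed nuclei are not shown. TGFB3 peaks in the pericyte-like class (261 CPM) and TGFB2 in the endothelial-like class (419 CPM).

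Over the 30 sums of 5 pigs and 6 classes, 6365 genes were compared with TGFB3, TGFB2 and CCN2 for likeness of pattern (Pearson correlation of log2 of CPM plus 5, a description, since the sums of a pig share a library). The genes most like TGFB3 were IRAG1 (r = 0.88), TPM4 (0.87) and CNN1 (0.86), of which CNN1 encodes calponin, a smooth muscle protein. TGFB2 was most like EPHB1 (0.83), TMTC1 (0.81) and TRAF3IP2 (0.80). CCN2 had no gene as close, with NOS1AP (0.65), ZNF423 (0.65) and SCHIP1 (0.64) at the top.

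In smooth muscle-like nuclei the level of TGFB3 was 286, 118 and 403 CPM in obese pigs 1 to 3, against 51.8 and 82.8 CPM in control pigs 1 and 2. All 3 obese pigs were above both control pigs, with obese pig 2 closest to them. The fitted log2 fold change (obese over control) was 1.97 (SE 0.49), which is 3.91-fold, and this is the contrast by which the gene was chosen. With each pig left out in turn it lay between 1.51 and 2.38, and over all 15 alternatives between 1.39 and 2.38.

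The other ligands had overlapping groups in this class. TGFB2 was at 53.2, 40.9 and 96.1 CPM in obese and 80.8 and 69.7 CPM in control smooth muscle-like nuclei (log2 fold change -0.28, SE 0.35). TGFB1 was at 20.8, 27.2 and 32.9 CPM in obese and 12.2 and 22.6 CPM in control nuclei (0.58, SE 0.34). Of the 3 ligands, then, TGFB3 alone had groups that did not overlap in smooth muscle-like nuclei.

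TGFB3 was also read in the smooth muscle-like clusters, whose makeup differed between the pigs. These are parts of the contrast by which the gene was chosen, so the values are descriptions and give it no further support. The mean of the obese pigs exceeded that of the control pigs in all 8 clusters, and the groups did not overlap in 5 of them (clusters 3, 4, 5, 7 and 11). The share of all genes without overlap was not taken in these clusters, so nothing is read from that count. Cluster 7 held 17, 13 and 30 nuclei of obese pigs 1 to 3, and it and cluster 2 fell under the minimum of 20 nuclei in every pig. In cluster 5 the level was 275, 352 and 358 CPM in obese pigs, against 29.4 and 65.4 CPM in control pigs. Cluster 11 had the highest level of all, 1109, 744.3 and 2325 CPM in obese pigs and 254 and 742.5 CPM in control pigs, so that obese pig 2 and control pig 2 were nearly equal there. Cluster 2, with 1240, 2766 and 463 nuclei in obese pigs but 14 and 84 in control pigs, overlapped at 150.2, 53.8 and 183 CPM in obese and 58.6 and 162 CPM in control nuclei. TGFB3 and CCN2 were among the 10 genes that marked cluster 1, which held 3190 nuclei of obese pig 3 and 89 of control pig 1, so the size of that cluster is not independent of them.

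**Figure D2:**
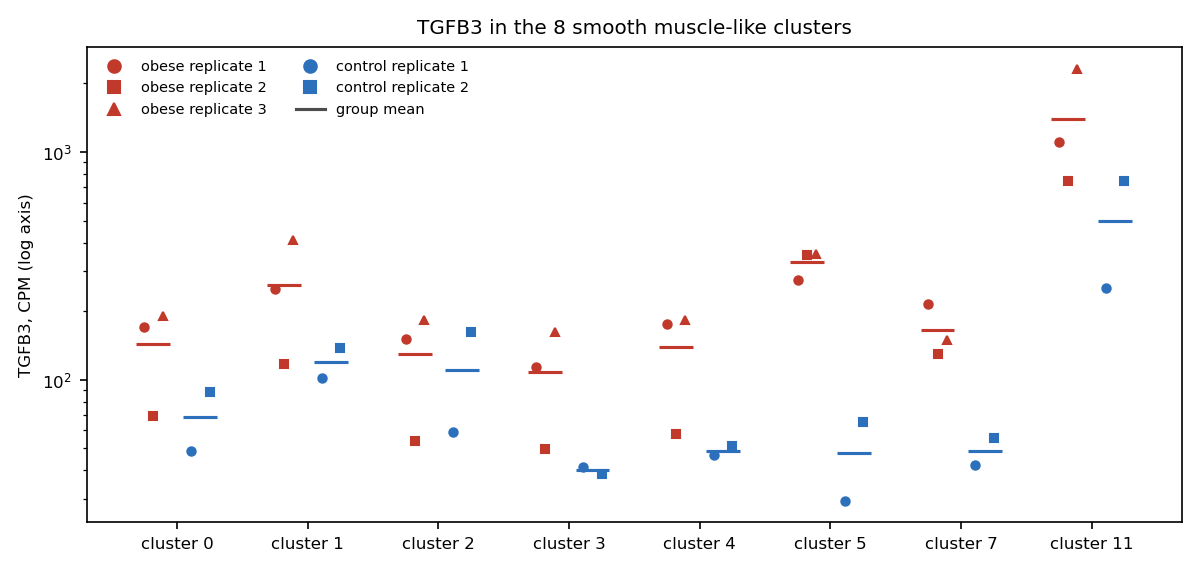
TGFB3 level (CPM, log axis) in the 8 smooth muscle-like clusters, 1 point per pig, with obese pigs left of control pigs and a line at each group mean. In cluster 5 the obese pigs lie between 275 and 358 CPM and the control pigs at 29.4 and 65.4 CPM, while in cluster 2 the groups overlap.

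The receptors did not differ beyond the spread between pigs in smooth muscle-like nuclei. TGFBR1 was at 142, 84.9 and 110.3 CPM in obese and 109.7 and 49.2 CPM in control pigs, and TGFBR2 at 122, 244 and 127 CPM in obese and 186 and 137 CPM in control pigs. TGFBR3 was at 32.7, 20.9 and 21.7 CPM in obese pigs, a range that contained both control values of 21.7 and 30.5 CPM. Their log2 fold changes were 0.46 (SE 0.34) for TGFBR1, -0.05 (SE 0.28) for TGFBR2 and -0.12 (SE 0.30) for TGFBR3. SMAD3, the mediator, was at 96.2, 139 and 147 CPM in obese and 126 and 167 CPM in control pigs (-0.26, SE 0.25).

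SMAD6 was lower in obese smooth muscle-like nuclei, at 42.9, 128 and 130.3 CPM, against 161 and 276 CPM in control nuclei. The groups did not overlap, but the log2 fold change of -1.19 (SE 0.42) did not pass the test (adjusted p = 0.260, edgeR quasi-likelihood test with Benjamini-Hochberg adjustment over all 17086 genes tested). CCN1 was at 76.0, 28.5 and 212 CPM in obese and 62.8 and 48.1 CPM in control pigs. CCN2 showed the same order among pigs, with 235, 77.5 and 635 CPM in obese and 177 and 107 CPM in control pigs. Among the obese pigs, pig 3 was highest and pig 2 lowest for both CCN genes and for TGFB3. The log2 fold changes of 0.93 (SE 0.65, adjusted p = 0.577) for CCN1 and 1.16 (SE 0.69, adjusted p = 0.503) for CCN2 did not pass the test. Without obese pig 3 they were -0.16 and 0.08.

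At an adjusted p under 0.05, none of the 9 members other than TGFB3 was called in smooth muscle-like nuclei, where 0.234% of the genes tested were called. Of the 10 members, TGFB3 (higher) and SMAD6 (lower) had groups that did not overlap, while 29.6% of all genes tested had such groups. The choice of TGFB3 enters that count, so nothing is read from it. A list of immediate early and heat shock genes, which rise when tissue is handled, summed to 2708, 2273 and 4846 CPM in obese pigs and 908 and 1663 CPM in control pigs. The macrophage list summed to between 19.0 and 89.9 CPM in obese and between 10.9 and 12.3 CPM in control smooth muscle-like nuclei, with 10 of its 14 genes higher in every obese pig. The part of either list in the differences above was not tested.

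**Figure D3:**
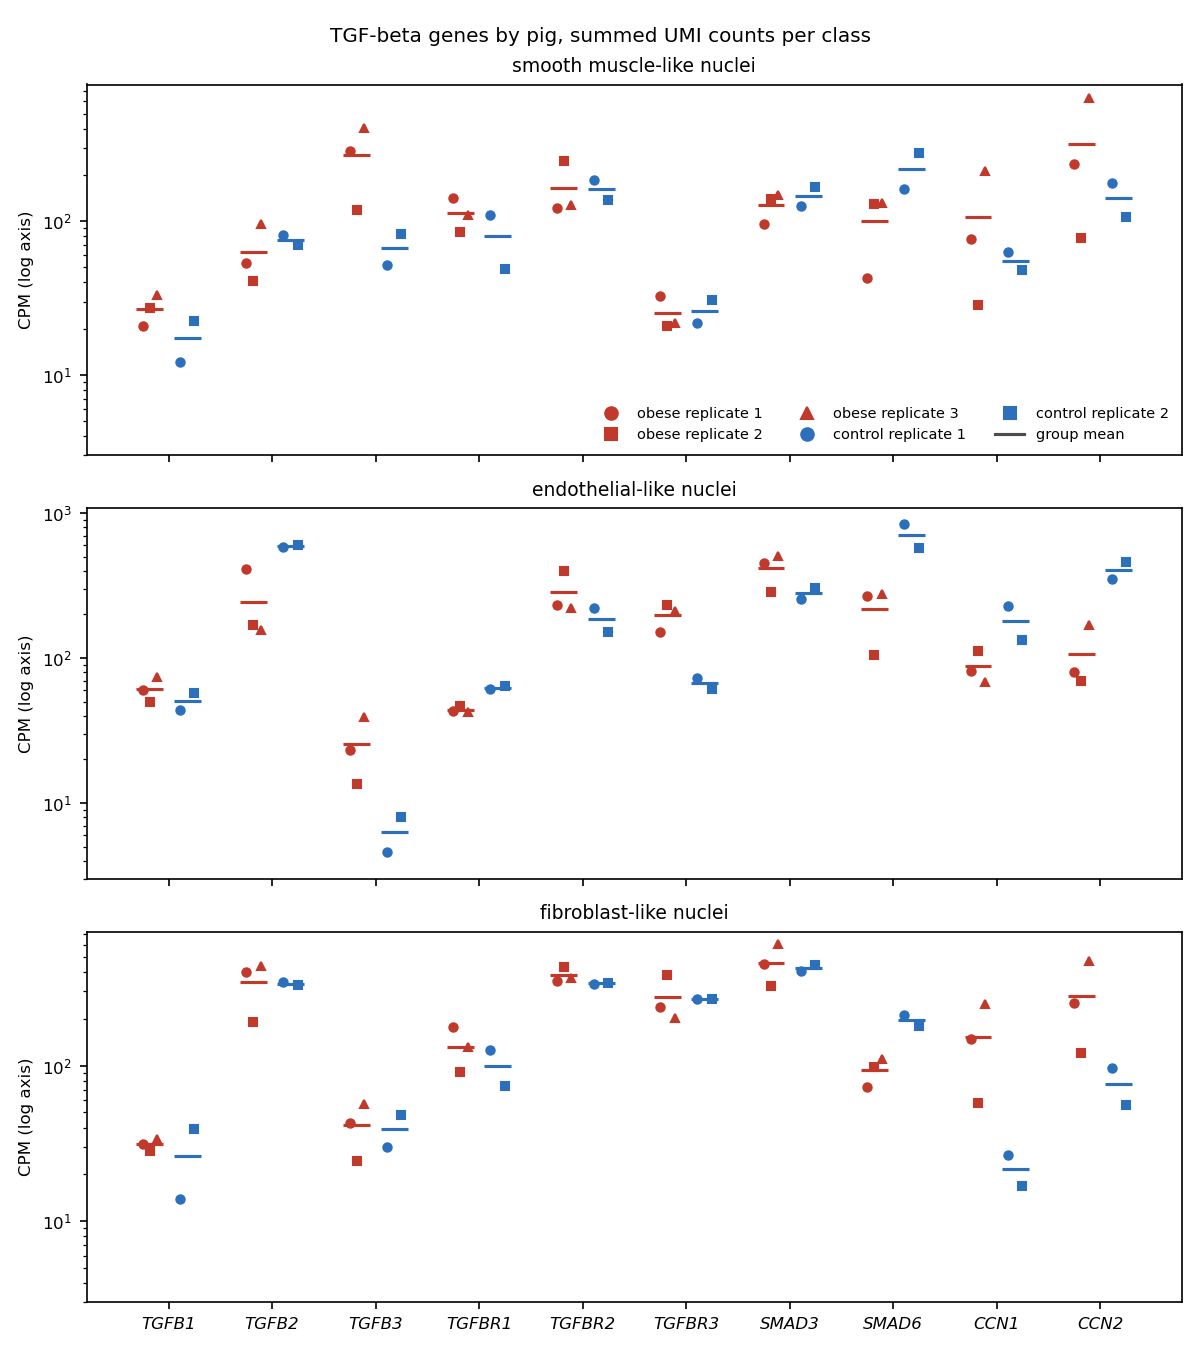
Level of each gene (CPM, log axis) by pig in smooth muscle-like (top), endothelial-like (middle) and fibroblast-like (bottom) nuclei, with obese pigs left of control pigs and a line at each group mean. In smooth muscle-like nuclei all 3 obese pigs exceed both control pigs for TGFB3, and in all 3 classes all obese pigs lie below both control pigs for SMAD6.

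TGFB3 in pericyte-like nuclei, the other mural cells, is given as a description too, because these nuclei came from the same 5 pigs and libraries as the smooth muscle-like contrast used to choose it and carried 10 smooth muscle markers beside 5 of 10 pericyte markers. The level was 454, 236 and 425 CPM in obese pigs, against 113 and 185 CPM in control pigs, with no overlap. The log2 fold change was 1.44 (SE 0.45). No gene was called in this class by edgeR's quasi-likelihood test with the count filter or by limma-voom (0% of 5950 genes), 409 genes had an unadjusted p under 0.05 in that edgeR test, DESeq2 called 13 and edgeR with no filter 77. Groups did not overlap for TGFB3 alone of the 9 members tested, against 23.8% of all genes. Pericyte-like nuclei numbered 223, 377 and 88 in obese and 143 and 65 in control pigs. Their summed smooth muscle marker level, 10582 to 16047 CPM in obese and 13066 to 13121 CPM in control pigs, was close to that of smooth muscle-like nuclei, and their pericyte marker sum was 1206 to 1651 CPM in obese and 2566 to 2582 CPM in control pigs.

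In endothelial-like nuclei the ligands differed from each other. TGFB2 was at 412, 169 and 155 CPM in obese pigs and at 583 and 602.5 CPM in control pigs, with all obese pigs below both control pigs (log2 fold change -1.19, SE 0.41, a contrast used to choose the genes). TGFB3 was at 23.2, 13.5 and 39.5 CPM in obese pigs, from 15, 11 and 15 UMIs, against 4.57 and 7.97 CPM in control pigs, from 12 and 10 UMIs. TGFB1 overlapped, with 60.3, 50.1 and 73.8 CPM in obese and 44.2 and 57.4 CPM in control pigs. For TGFB3 the log2 fold change of 2.07 (SE 0.63) missed the threshold (adjusted p = 0.0746, edgeR quasi-likelihood test), so TGFB3 was not seen to move in opposite directions in smooth muscle-like and endothelial-like nuclei.

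The TGFB3 level of endothelial-like nuclei kept a steady proportion to that of the same pig's smooth muscle-like nuclei, 8.11%, 11.4% and 9.81% in obese and 8.81% and 9.63% in control pigs. Smooth muscle marker genes summed in endothelial-like nuclei to 15.1%, 21.5% and 11.6% of their smooth muscle-like level in obese pigs, and to 12.4% and 13.1% in control pigs. Whether free RNA contributed to the endothelial TGFB3 UMIs was not tested. In fibroblast-like nuclei the same proportion for TGFB3 was 14.9%, 20.7% and 14.02% in obese but 57.5% and 57.9% in control pigs, while the marker proportion was 32.3%, 31.2% and 25.7% in obese and 25.7% and 31.7% in control pigs.

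TGFBR3, the co-receptor, rose in obese endothelial-like nuclei to 152, 231 and 211 CPM, against 73.1 and 61.4 CPM in control nuclei. Every obese pig was above both control pigs, and the log2 fold change was 1.63 (SE 0.31, adjusted p = 0.0162, edgeR quasi-likelihood test). The call was lost when control pig 1 (adjusted p = 0.126) or control pig 2 (adjusted p = 0.182) was left out. TGFBR2 was at 232, 399 and 221 CPM in obese and 220.1 and 152 CPM in control pigs, and TGFBR1 at 43.3, 46.5 and 42.2 CPM in obese and 60.9 and 63.8 CPM in control pigs. Neither passed the test, at log2 fold changes of 0.67 (SE 0.32, adjusted p = 0.225) for TGFBR2 and -0.43 (SE 0.30, adjusted p = 0.414) for TGFBR1, although the groups did not overlap for either.

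SMAD6 was at 268, 105 and 277 CPM in obese and at 836 and 575 CPM in control endothelial-like nuclei, again with no overlap. Its log2 fold change of -1.61 (SE 0.43) just missed the threshold (adjusted p = 0.0529, edgeR quasi-likelihood test), and it was called in 6 of 13 alternative analyses. SMAD3 overlapped, at 457, 285 and 509 CPM in obese and 257 and 303 CPM in control pigs (0.67, SE 0.34, adjusted p = 0.259).

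Both CCN genes were lower in obese endothelial-like nuclei. CCN2 was at 80.5, 69.7 and 169 CPM in obese and at 354 and 461 CPM in control pigs (log2 fold change -1.87, SE 0.41, a contrast used to choose the genes). CCN1, which was not so used, was at 82.0, 113 and 68.5 CPM in obese and 228 and 133 CPM in control pigs, with no overlap. Its log2 fold change of -0.96 (SE 0.32) did not pass the test (adjusted p = 0.101).

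Among the 8 members not chosen on this contrast, TGFBR3 was called in endothelial-like nuclei, in a comparison in which 7.66% of the 8028 genes tested were called. Groups did not overlap for 8 of all 10 members, 3 of them higher and 5 lower, against 44.4% of all genes tested. The choice of TGFB2 and CCN2 on this contrast enters the count of 8, so nothing is read from it. The immediate early and heat shock list summed to 4054, 5869 and 5931 CPM in obese and 1538 and 3268 CPM in control endothelial-like nuclei. The macrophage list summed to 23.7 to 152 CPM in obese and 12.8 to 14.8 CPM in control pigs, with C1QA at 0, and the fibroblast list to 371 to 504 CPM in obese and 928 to 1060.0 CPM in control pigs. Their part in the differences was not tested.

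The endothelial-like class was made of a pair of clusters that the pigs filled unequally. Obese pigs 1 to 3 gave 44, 25 and 22 nuclei to cluster 18, against 251 and 147 from control pigs 1 and 2. To cluster 14 the obese pigs gave 174, 258 and 104 nuclei, against 178 and 60 from the control pigs. The median UMI count per endothelial-like nucleus was 1572.5, 1752 and 1633 in obese and 4920 and 5429 in control pigs. The share of all genes without overlap was not taken in either cluster, so overlap within them is given as a description only.

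In cluster 18 TGFB2 was at 204, 116 and 215 CPM in obese pigs and at 659 and 643 CPM in control pigs, from 53, 10 and 24 UMIs in obese and 1453 and 734 UMIs in control pigs. In cluster 14 it was at 551, 175 and 131 CPM in obese and 185 and 195 CPM in control pigs, so the groups overlapped and their log2 fold change was 0.68 (SE 0.55) instead of -1.70 (SE 0.40). CCN2 was likewise lower in cluster 18, at 65.5, 186 and 215 CPM in obese and 393 and 494 CPM in control pigs, and overlapped in cluster 14, at 90.5, 56.0 and 149.2 CPM in obese and 149.4 and 133 CPM in control pigs. The lower TGFB2 and CCN2 of the obese class were thus seen without overlap in cluster 18 and not in cluster 14. For TGFB2 the overlap in cluster 14 came from obese pig 1, while the other obese pigs, at 175 and 131 CPM, lay below both control pigs. Nuclei of obese pig 1 with lymphatic marker genes, described below, held 205 TGFB2 UMIs, against 53 in all its cluster 18 nuclei. Most of those 205 UMIs therefore lay in cluster 14, which was not read without these nuclei.

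TGFBR3 was higher in obese nuclei of cluster 18, at 69.3, 116 and 117 CPM against 30.8 and 40.3 CPM in control nuclei, with a log2 fold change of 1.57 (SE 0.45, adjusted p = 0.139, edgeR quasi-likelihood test). In cluster 14 it was at 207, 245 and 249.9 CPM in obese and 294 and 274 CPM in control nuclei, so that every obese pig was below both control pigs, by a log2 fold change of -0.18 (SE 0.33, adjusted p = 0.912). Both control levels of TGFBR3 were lower in cluster 18 than in cluster 14, and cluster 18 held most control and few obese endothelial-like nuclei. How much of the class difference came from this makeup was not tested.

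CCN1 differed in sign between the clusters. It was at 100.1, 81.3 and 53.8 CPM in obese and 265 and 142 CPM in control nuclei of cluster 18, and at 69.8, 116 and 74.6 CPM in obese and 30.8 and 44.3 CPM in control nuclei of cluster 14. Some of these levels came from few nuclei, 25 and 22 of obese pigs 2 and 3 in cluster 18 and 60 of control pig 2 in cluster 14. In cluster 18 every obese pig had a lower level of CCN1 than of TGFB2. The CCN1 values there thus rest on fewer UMIs than those given above for TGFB2. Groups did not overlap in either cluster, with log2 fold changes of -1.20 (SE 0.44, adjusted p = 0.234) in cluster 18 and 1.41 (SE 0.49, adjusted p = 0.377) in cluster 14. SMAD3 was higher in every obese pig of both clusters, at 655, 673 and 789.8 CPM in obese and 276 and 313 CPM in control nuclei of cluster 18, and at 323, 239 and 391.7 CPM in obese and 154 and 195 CPM in control nuclei of cluster 14. These differences of SMAD3 were 1.39 (SE 0.37, adjusted p = 0.115) and 1.00 (SE 0.39, adjusted p = 0.419) on the log2 scale, larger than the 0.67 of the whole class.

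Of the 8 members not chosen on the endothelial-like contrast, none was called in cluster 18, where 0.743% of 4443 genes were called. In cluster 14 no gene was called by edgeR's quasi-likelihood test (0% of 5886 genes), while 606 had an unadjusted p under 0.05. When the diet difference of cluster 18 was tested against that of cluster 14, 1 of 6124 genes was called (0.0163%), and none of those 8 members. The differences between clusters were -2.62 (SE 0.71, adjusted p = 0.316) for CCN1 and 1.78 (SE 0.54, adjusted p = 0.394) for TGFBR3 on the log2 scale. For TGFB2 the value was -2.27 (SE 0.58), made from nuclei of the contrast used to choose it and so given without a test.

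**Figure D4:**
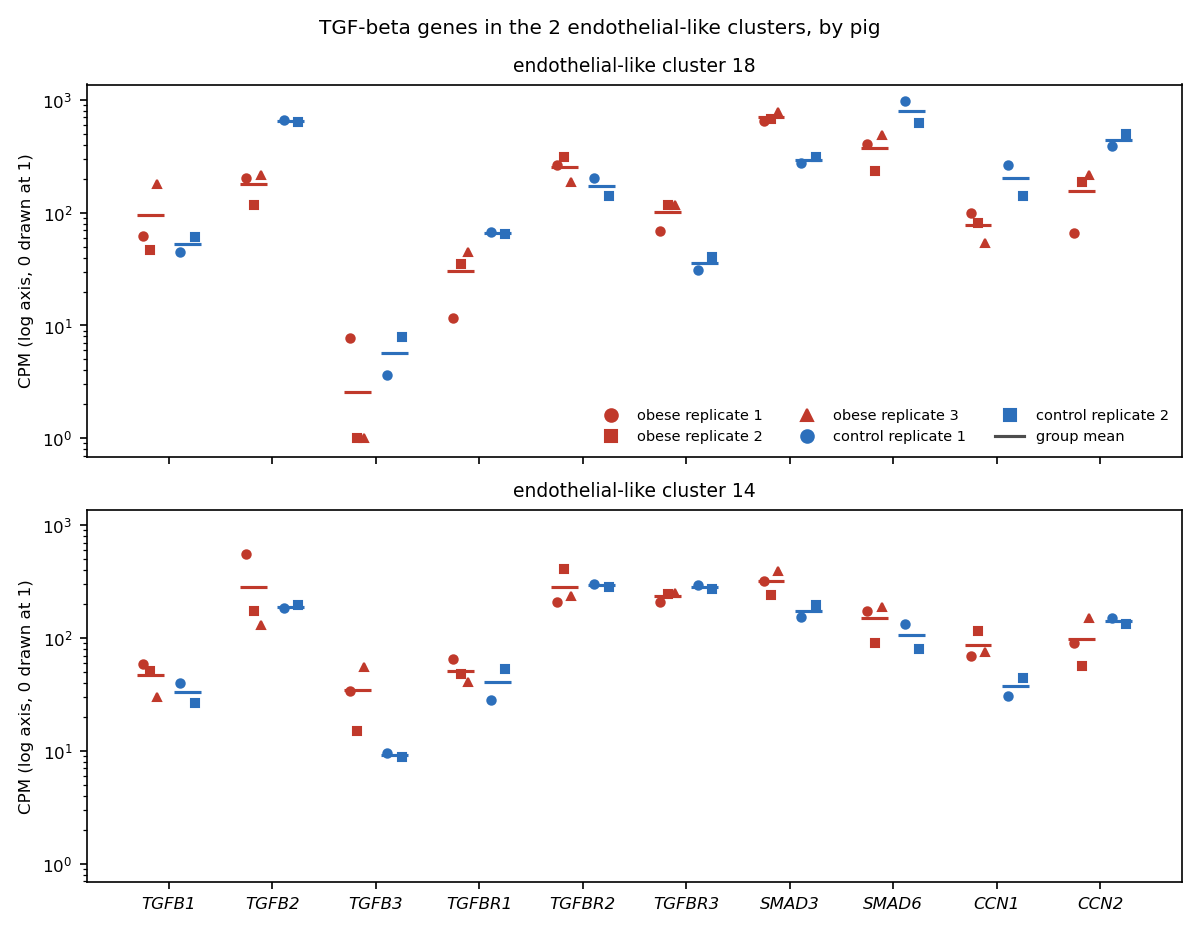
Level of each gene (CPM, log axis, with 0 drawn at 1) by pig in endothelial-like cluster 18 (top) and cluster 14 (bottom), with obese pigs left of control pigs and a line at each group mean. TGFB2 is at 116 to 215 CPM in obese and 643 to 659 CPM in control pigs in cluster 18, but overlaps in cluster 14, and CCN1 is lower in obese pigs in cluster 18 and higher in cluster 14.

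TGFB2 was also read apart in endothelial-like nuclei with lymphatic marker genes. The lymphatic marker list summed in endothelial-like nuclei to 738, 1073 and 271 CPM in obese pigs, against 227 and 234 CPM in control pigs. Nuclei with UMIs of at least 2 of its genes, PDPN not counted, numbered 22, 47 and 6 in obese and 22 and 7 in control pigs. In those nuclei TGFB2 was at 1290.0, 339 and 122 CPM in obese and 587 and 575 CPM in control pigs. In the remaining endothelial-like nuclei it was at 125, 72.7 and 160.4 CPM in obese pigs, against 583 and 603 CPM in control pigs, and the log2 fold change without the nuclei with lymphatic genes was -2.23. TGFB2 was thus higher in the nuclei with lymphatic genes than in the remaining ones in obese pigs 1 and 2, lower in obese pig 3, where it rested on 6 UMIs, and nearly equal in both control pigs. The high class level of TGFB2 in obese pig 1 came from the 22 nuclei with lymphatic genes, which held 205 of its 266 TGFB2 UMIs.

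In fibroblast-like nuclei the CCN genes stood higher in the obese pigs and the ligands did not. CCN1 was at 149, 57.7 and 251 CPM in obese pigs, against 26.8 and 16.7 CPM in control pigs. CCN2 was at 252, 121 and 474 CPM in obese pigs, against 96.4 and 55.7 CPM in control pigs. For both genes every obese pig was above both control pigs. Obese pig 3 was highest and obese pig 2 lowest of the obese pigs, as in smooth muscle-like nuclei. The smooth muscle list summed to 3650 to 4010 CPM in obese and 3509 to 3766 CPM in control fibroblast-like nuclei. The fibroblast list summed to less there, 2336 to 3183 CPM in obese and 2629 to 2697 CPM in control pigs. Whether smooth muscle RNA contributed to the CCN levels was not tested. The log2 fold changes of 2.80 (SE 0.59, adjusted p = 0.109) for CCN1 and 1.92 (SE 0.54, adjusted p = 0.223) for CCN2 did not pass edgeR's quasi-likelihood test over 8787 genes.

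SMAD6 was at 72.9, 98.5 and 111 CPM in obese and 211 and 181 CPM in control fibroblast-like nuclei, without overlap (-1.03, SE 0.26, adjusted p = 0.1803). It was therefore lower in every obese pig than in either control pig in the class sums of smooth muscle-like, endothelial-like and fibroblast-like nuclei. It passed the test in none of them. In pericyte-like nuclei its level was lower still, with 10.8 to 58.2 CPM in obese and 25.02 to 51.0 CPM in control pigs, and the groups overlapped. Within endothelial-like cluster 18 the log2 fold change of SMAD6 was -0.93 (SE 0.44), without overlap. In cluster 14 it was 0.55 (SE 0.46), with overlap. Groups also overlapped in smooth muscle-like clusters 0, 1, 3 and 4, where the values were negative. They did not overlap in smooth muscle-like clusters 5 and 11 or fibroblast-like clusters 8 and 15, all lower in obese pigs. The share of all genes without overlap was not taken in single clusters, so nothing is read from how many of them showed it.

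TGFB2 was at 402, 190.1 and 439.6 CPM in obese and 343 and 328 CPM in control fibroblast-like nuclei, and TGFB3 at 42.7, 24.5 and 56.5 CPM in obese and 29.8 and 47.9 CPM in control nuclei. TGFB1 was at 31.3, 28.2 and 33.9 CPM in obese and 13.8 and 39.0 CPM in control nuclei. The ligands thus overlapped between the groups, with log2 fold changes of 0.07 (SE 0.36) for TGFB2, 0.12 (SE 0.43) for TGFB3 and 0.33 (SE 0.46) for TGFB1.

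TGFBR2 was at 352, 432 and 366 CPM in obese and 337 and 339.9 CPM in control fibroblast-like nuclei, a small difference without overlap (0.20, SE 0.22, adjusted p = 0.799). TGFBR1 was at 176, 91.0 and 131 CPM in obese and 125 and 73.6 CPM in control nuclei. TGFBR3 was at 239.7, 383 and 203 CPM in obese and 268 and 266 CPM in control nuclei. SMAD3 was at 450.2, 326 and 602 CPM in obese and 404 and 442 CPM in control nuclei. Obese pig 2 stood apart from the other obese pigs in several of these genes, low for TGFB2, TGFBR1 and SMAD3 and high for TGFBR2 and TGFBR3.

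No member was called in fibroblast-like nuclei, where 0.193% of all genes were. Groups did not overlap for 4 of the 10 members, TGFBR2, CCN1 and CCN2 being higher and SMAD6 lower, against 27.7% of all genes tested. In cluster 8, which held 399, 321 and 326 nuclei of the obese and 608 and 331 of the control pigs, CCN1 rose to 167, 78.0 and 269 CPM in obese pigs, against 25.3 and 16.0 CPM in control pigs. This log2 fold change of 3.05 was called (adjusted p = 0.0479, edgeR quasi-likelihood test, 0.124% of 8093 genes called). The call was lost without obese pig 1 (adjusted p = 0.317), control pig 1 (0.225) or control pig 2 (0.239). The immediate early and heat shock list, of which CCN1 is not a member, summed to 3694, 4309 and 5638 CPM in obese and 1098 and 1738 CPM in control fibroblast-like nuclei, and its part in the CCN1 difference was not tested.

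**Figure D5:**
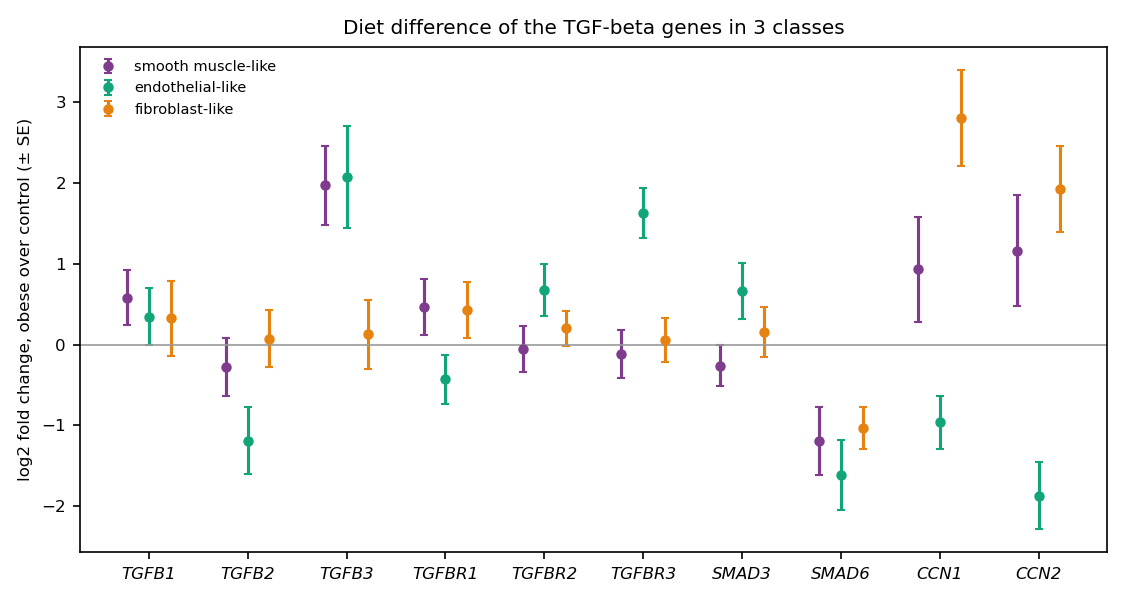
Log2 fold change of each gene, obese over control, with its standard error as bars, in smooth muscle-like, endothelial-like and fibroblast-like nuclei (edgeR, 3 obese and 2 control pigs). CCN1 and CCN2 lie above 0 in fibroblast-like and below 0 in endothelial-like nuclei, and SMAD6 lies below 0 in all 3 classes.

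Whether the diet difference itself differed between classes was tested with the pig as a block, since class sums of a pig share a library. The endothelial-like sums did not hold the makeup of that class's clusters fixed, and its part was not tested. For TGFBR3 the endothelial-like difference exceeded the smooth muscle-like difference by 1.65 on the log2 scale (SE 0.39, adjusted p = 0.00228, edgeR quasi-likelihood test over 16566 genes, of which 4.27% were called). The call was lost without obese pig 2 (adjusted p = 0.0557), without control pig 2 (0.362) and with limma-voom (0.0666). CCN1 was lower by -1.37 (SE 0.43, adjusted p = 0.0443) in the same test, a call that was lost in 7 of 13 alternatives and had a value of -0.51 without obese pig 3. CCN2 and TGFB2 had values of -2.72 (SE 0.38) and -0.98 (SE 0.37), which contain contrasts used to choose them. TGFB3 had 0.11 (SE 0.47), which also contains its smooth muscle-like contrast, so no opposite direction of TGFB3 between the 2 classes was seen.

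CCN1 also separated fibroblast-like nuclei from the other classes. Its fibroblast-like difference exceeded the smooth muscle-like difference by 2.12 on the log2 scale (SE 0.30, adjusted p = 0.0357), where 3 of 16082 genes (0.0187%) were called. TGFB3 had -1.77 (SE 0.26) there, which contains the contrast used to choose it. The endothelial-like difference of CCN1 lay -3.51 (SE 0.67, adjusted p = 0.0399) from the fibroblast-like one, where 0.933% of 9860 genes were called. CCN2 had -3.65 (SE 0.42) in that comparison, and TGFBR3 1.60 (SE 0.34, adjusted p = 0.0583). Each of these CCN1 calls was lost when either control pig was left out: the adjusted p was 0.445 without control pig 1 and 0.0664 without control pig 2 against smooth muscle-like nuclei, and 0.281 and 0.318 between endothelial-like and fibroblast-like nuclei. The call against smooth muscle-like nuclei was lost in 5 of 12 alternatives, the others being no doublet removal (adjusted p = 0.136), limma-voom (0.126) and the clusters led by ACTN2 left out (0.0534). The call between endothelial-like and fibroblast-like nuclei was lost in 3 of 11, also without obese pig 1 (adjusted p = 0.112).

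Macrophage-like nuclei were too few in the control pigs for the same test, with 389, 1368 and 134 in obese and 33 and 15 in control pigs. TGFBR1 was higher in this class than in any other named class (143 CPM as the mean of group means), from 137, 801 and 32 UMIs in obese and 11 and 3 UMIs in control pigs. At a coarser clustering the class held 414, 1394 and 145 nuclei in obese and 85 and 39 in control pigs, and no member was called (2.11% of 5963 genes were). SMAD6, which was lower in obese pigs in the 3 classes above, had a log2 fold change of 1.12 (SE 0.50, adjusted p = 0.299) there.

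The other genes of the pathway were taken as lists, whose counts of called genes stand beside the shares of all genes tested given above, 7.66% in endothelial-like, 0.234% in smooth muscle-like and 0.193% in fibroblast-like nuclei. These genes were read in class sums only. The pigs filled the endothelial-like clusters unequally, and the part of this makeup in the endothelial-like differences below was not tested. Among genes that bind or release latent TGF-beta, THBS1 rose in all 3 tested classes. THBS1 encodes thrombospondin 1, which can release the ligand from its latent complex. It was at 878, 347 and 645 CPM in obese and 60.8 and 72.9 CPM in control smooth muscle-like nuclei (log2 fold change 3.18, SE 0.41, adjusted p = 0.0253). In endothelial-like nuclei THBS1 was at 531, 658 and 1220.0 CPM in obese and 140.1 and 81.3 CPM in control pigs (2.95, adjusted p = 0.00943), and in fibroblast-like nuclei at 345, 277 and 373 CPM in obese and 69.2 and 47.9 CPM in control pigs (2.51, adjusted p = 0.0234). It was the only called gene of the 24 tested from this list in smooth muscle-like nuclei and of the 20 in fibroblast-like nuclei. In endothelial-like nuclei 6 of 16 tested were called, 3 higher and 3 lower, against 7.66% of all genes.

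LTBP2, a matrix protein related to the latent TGF-beta binding proteins, fell in endothelial-like nuclei to 186, 81.9 and 158 CPM in obese pigs, against 1496 and 1372 CPM in control pigs. Its log2 fold change of -3.25 (SE 0.39, adjusted p = 0.00534) was called in all 13 alternatives, none of which held the makeup of the endothelial-like clusters fixed. LTBP4, which binds the latent complex of TGFB1, fell by 1.91 on the log2 scale (adjusted p = 0.0331), and LRRC32, which holds latent TGF-beta at the cell surface, rose by 1.67 (adjusted p = 0.0492). The LRRC32 call was lost whichever pig was left out (adjusted p between 0.0636 and 0.338).

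Among receptors of the wider family, 2 of 9 tested were called in endothelial-like nuclei, both lower, against 7.66% of all genes, and none of 13 in smooth muscle-like or 10 in fibroblast-like nuclei. They were ACVRL1, the endothelial type I receptor also called ALK1, at 18.6, 7.34 and 15.8 CPM in obese and 65.9 and 56.6 CPM in control pigs (-2.11, SE 0.44, adjusted p = 0.0238), and BMPR1A, a BMP receptor (-1.11, adjusted p = 0.0406). The BMPR1A call was lost whichever pig was left out (adjusted p between 0.0556 and 0.333). BMPR1A and BMPR2 had the highest levels of the list in the other classes, with log2 fold changes of -0.24 (SE 0.21) and 0.14 (SE 0.23) in smooth muscle-like and -0.29 (SE 0.25) and 0.17 (SE 0.29) in fibroblast-like nuclei.

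Of the SMADs, co-regulators and feedback genes, 3 of 23 were called in endothelial-like nuclei, against 7.66% of all genes, and none in the other 2 classes. TGIF1, a co-repressor of SMAD2 and SMAD3, rose by 2.04 (adjusted p = 0.0319), SMAD1, the mediator of BMP signals, rose by 1.32 (adjusted p = 0.0388), and USP9X, a deubiquitinase of SMAD4, fell by 1.22 (adjusted p = 0.0277), all on the log2 scale. LDLRAD4, an inhibitor of TGF-beta signalling, had values of 0.49 (SE 0.31) in smooth muscle-like and -0.01 (SE 0.32) in fibroblast-like nuclei, SMURF1 had 0.08 (SE 0.28) in smooth muscle-like and SMURF2 0.08 (SE 0.28) in fibroblast-like nuclei. Of the other ligands and antagonists, BMP2 rose (4.48, SE 0.87, adjusted p = 0.0169) and BMP4 fell (-2.54, SE 0.64, adjusted p = 0.0417) in endothelial-like nuclei, out of 4 tested. BMP2 was at 12.4, 33.0 and 10.5 CPM in obese and only 0.38 and 1.59 CPM in control pigs. BMP4 was at 6.19, 7.34 and 2.63 CPM in obese and 18.3 and 55.0 CPM in control pigs. Both fold changes thus rest on very few UMIs in 1 of the groups. The BMP4 call was lost whichever pig was left out (adjusted p between 0.0514 and 0.459). None of these ligands and antagonists was called in smooth muscle-like nuclei, where FSTL1 had -0.14 (SE 0.31) and INHBA 1.12 (SE 0.56), or in fibroblast-like nuclei, where FSTL1 had -0.34 (SE 0.29) and BMP6 -0.79 (SE 0.52).

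Target genes of TGF-beta were not all called in the same direction. In endothelial-like nuclei 4 of 33 rose and 1 fell, where 7.66% of all genes were called in either direction. TIMP1, a metalloproteinase inhibitor, rose by 3.59 (adjusted p = 0.0188), ADAM12 by 2.42 (0.0285) and CDKN1A by 2.03 (0.0270), while ELN, which encodes elastin, fell to 255, 331 and 306 CPM in obese pigs, against 1240.4 and 959 CPM in control pigs (-1.81, SE 0.28, adjusted p = 0.00817). None of 36 was called in smooth muscle-like nuclei, where the contractile genes ACTA2 and TPM1 had log2 fold changes of 0.60 (SE 0.35) and 0.18 (SE 0.23). The median log2 fold change of the list was 0.10 in smooth muscle-like, 0.23 in endothelial-like and 0.28 in fibroblast-like nuclei, beside 0.01, -0.03 and 0.00 over all genes tested.

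In the YAP, TAZ and TEAD list, 3 of 19 genes tested were called in endothelial-like nuclei, against 7.66% of all genes. WWTR1, which encodes TAZ, rose to 1936, 1647 and 2287 CPM in obese pigs, against 464 and 638 CPM in control pigs (1.92, SE 0.35, adjusted p = 0.0143), and ASAP1 rose by 1.50 (adjusted p = 0.0279). AMOTL2, a target and inhibitor of YAP, fell by 2.16 on the log2 scale (adjusted p = 0.00846). None was called in the other classes, where TEAD1 had 0.14 (SE 0.29) in smooth muscle-like and 0.19 (SE 0.28) in fibroblast-like nuclei, CRIM1 had 0.03 (SE 0.49) in smooth muscle-like and WWTR1 0.40 (SE 0.22) in fibroblast-like nuclei.

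The immediate early and heat shock list had 10 of 21 tested genes called in endothelial-like nuclei, all higher, against 7.66% of all genes, and 2 of 21 in smooth muscle-like and 2 of 19 in fibroblast-like nuclei. The members that rose furthest in endothelial-like nuclei were EGR3 (3.85, adjusted p = 0.0295), ATF3 (3.58, adjusted p = 0.00412), FOSL2 (3.19, adjusted p = 0.00534) and FOSB (2.81, adjusted p = 0.0101). EGR3 was at only 1.52 and 0.80 CPM in control pigs, so its fold change rests on very few control UMIs. FOSL2 also rose in smooth muscle-like nuclei (1.92, adjusted p = 0.0473), with DUSP1 (2.95, adjusted p = 0.0412), and in fibroblast-like nuclei (2.22, adjusted p = 0.0368), with ATF3 (2.68, adjusted p = 0.0365). Of the pathway and handling genes named above as called, LTBP2, ATF3 and FOSL2 in endothelial-like nuclei were called in all 13 alternatives, and each of the other calls was lost when 1 or both control pigs were left out in turn. Of those others, the calls of THBS1, BMP2, CDKN1A, ELN, AMOTL2, WWTR1, EGR3 and FOSB in endothelial-like nuclei held without each obese pig in turn, and the rest were lost without at least 1 obese pig. No alternative held the makeup of the endothelial-like clusters fixed.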

How the data were processed

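Nuclei sorted after DRAQ5 staining from about 50 mm of frozen abdominal aorta per pig went into a 10x Genomics 3′ assay. The authors deposited raw UMI counts for every feature and barcode, for which the labels name Cell Ranger 5.0 and the file headers version 7.1.0, on the pig build named Sscrofa11. Per the submitters' processing notes Seurat 5.0 was used later, and none of its output was used here. The matrices held 35670 features, of which 17508 had a symbol in the files and a table of gene identifiers named 223 more.

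Of 45580 barcodes, 77 were dropped for having under 300 genes or over 5% mitochondrial UMIs. Scrublet's automatic threshold marked 2 barcodes, so the barcodes with the highest scores, up to the number expected from the size of each library, were removed instead (3517). The remaining 41986 nuclei were clustered with scanpy 1.11.5 and leidenalg 0.10.2 (3000 variable genes, 30 principal components, 20 neighbours, resolution 1.0), and the 22 clusters were named from marker lists, which left 5 unnamed. A name needed at least 3 markers at 20 CPM or more and at least 2 times their lower quartile over clusters.

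UMI counts were summed per pig and class where every pig had at least 20 nuclei, and tested with edgeR's quasi-likelihood test (TMM factors, filterByExpr), with Benjamini-Hochberg adjustment over all genes tested. A gene was called at an adjusted p under 0.05. Standard errors were the log2 fold change over the root of the F statistic. Whether a diet difference varied from class to class was tested by an interaction term, blocking on pig. The fits were tested on simulated data. P-values measure the spread between pigs, and UMI counts carry counting error beside it. Alternatives were RLE factors, no filter, limma-voom, DESeq2, the replicate number as a block, each pig left out, no doublet removal, a resolution of 0.5 and other cluster choices. Promoters were read from RefSeq's Sscrofa11.1 genome by the RefSeq annotation, in which all 10 genes were matched.

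The members and gene lists were chosen with earlier results of these data known. The genes named are all members, up to 4 called genes per pathway list and class or, where none was called, the 2 of highest mean CPM, and the 3 genes most like TGFB2, TGFB3 and CCN2 among those at 20 CPM or more. A gene that this rule also names is not reported here. The fits within single clusters, in pericyte-like nuclei and without nuclei holding UMIs of at least 2 lymphatic genes were added after the data had been seen.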

Additional observations from a re-analysis of the deposited data

Results flagged for a closer look

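The tests of a difference between classes gave 4 results in which the diet difference of a gene varied from class to class. TGFBR3 had a diet difference in endothelial-like nuclei that exceeded the smooth muscle-like one by 1.65 on the log2 scale. For CCN1 the endothelial-like difference lay -1.37 from the smooth muscle-like one, the fibroblast-like difference lay 2.12 from the smooth muscle-like one, and the endothelial-like difference lay -3.51 from the fibroblast-like one. All 4 had an adjusted p under 0.05 in edgeR's quasi-likelihood test, with 3 obese and 2 control pigs. The results with endothelial-like nuclei rest on a class whose clusters 18 and 14 the pigs filled unequally. In cluster 14 the log2 fold changes were -0.18 for TGFBR3 and 1.41 for CCN1, against 1.57 and -1.20 in cluster 18. Cluster 18 held only 44, 25 and 22 nuclei of obese pigs 1 to 3. The part of this makeup in these results was not tested. The TGFBR3 call was lost in 3 of 13 alternatives, namely without obese pig 2, without control pig 2 and with limma-voom (adjusted p = 0.0666). The CCN1 calls were lost without either control pig and in other alternatives too, and held in 6 of 13 alternatives for endothelial-like against smooth muscle-like, 7 of 12 for fibroblast-like against smooth muscle-like and 8 of 11 for endothelial-like against fibroblast-like nuclei. No single pig was tested as standing apart within its group, because the groups held 3 and 2 pigs.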

How the results depend on the processing

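Counts of called genes, over all genes tested, depended on the setting more than the directions of the members did. In smooth muscle-like nuclei 40 genes were called, against 883 with no filter, 20 with limma-voom, 556 with DESeq2, 22 at a resolution of 0.5, 19 with the unnamed smooth muscle marker clusters added, 3 without the clusters led by ACTN2, and 2 to 94 with each pig left out. In endothelial-like nuclei 615 were called, against 1280 with no filter and 47 to 682 with a pig left out. In fibroblast-like nuclei 17 were called, against 334 with no filter, 92 with DESeq2, 37 at a resolution of 0.5 and 0 to 113 with a pig left out. In pericyte-like nuclei 0 were called, against 77 with no filter and 13 with DESeq2. The test of endothelial-like against smooth muscle-like differences called 707, against 294 with limma-voom and 250 to 647 with a pig left out. That of fibroblast-like against smooth muscle-like differences called 3, against 6 with RLE factors, 151 with no filter, 1 with limma-voom, 0 without doublet removal, 11 at a resolution of 0.5, 5 with the unnamed clusters added, 0 without the clusters led by ACTN2 and 0 to 86 with a pig left out. That of endothelial-like against fibroblast-like differences called 92, against 430 with no filter, 172 with limma-voom, 150 without nuclei with lymphatic genes and 0 to 213 with a pig left out. The causes were not tested, except that fewer pigs were fitted where one was left out. Leaving out a control pig leaves 1, which is then assumed to vary like the obese pigs.

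Replicate numbers 1 and 2 occur in both groups, and nothing in the labels says that they pair pigs. With the replicate number as a block, 267 genes were called in smooth muscle-like, 214 in fibroblast-like and 34 in pericyte-like nuclei. Deviations of same-numbered pigs correlated at 0.23 and -0.0075 in smooth muscle-like, 0.07 and -0.01 in endothelial-like, and 0.11 and -0.11 in fibroblast-like nuclei, so the numbers were not taken as pairs. In that block fit, log2 fold changes of uncalled genes changed sign in smooth muscle-like nuclei for TGFBR2 (0.0093), CCN1 (-0.34), CCN2 (-0.13), SMURF1 (-0.012), TPM1 (-0.0062), CRIM1 (-0.19) and TEAD1 (-0.077). They did so in fibroblast-like nuclei for TGFB2 (-0.29), TGFB3 (-0.23), SMAD3 (-0.16), BMPR2 (-0.021) and SMURF2 (-0.079).

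Of 770 alternative values of members, 654 kept their direction and side of the threshold, 48 newly passed it, 31 no longer passed it and 37 changed sign, all from uncalled values. Of 621 values of named pathway genes the numbers were 490, 1, 105 and 25. Outside the block and the left-out pigs, signs changed in smooth muscle-like nuclei without the clusters led by ACTN2 for TGFBR2 (0.020) and FSTL1 (0.0023), and with no filter for CRIM1 (-0.017). In fibroblast-like nuclei they changed with limma-voom for TGFB2 (-0.045) and LDLRAD4 (0.017), without doublet removal for LDLRAD4 (0.085) and at a resolution of 0.5 for BMP6 (0.83). In the differences between classes they changed without doublet removal for TGFB3, endothelial-like against smooth muscle-like (-0.48), and TGFB1, fibroblast-like against smooth muscle-like (0.023), and without the clusters led by ACTN2 for TGFBR1, fibroblast-like against smooth muscle-like (0.083).

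With each pig left out in turn, the ranges that crossed 0 in smooth muscle-like nuclei were -0.77 to 0.00075 for TGFB2, -0.37 to 0.15 for TGFBR2, -0.37 to 0.18 for TGFBR3, -0.16 to 1.40 for CCN1, -0.089 to 0.40 for BMPR2, -0.28 to 0.56 for SMURF1, -0.41 to 0.19 for FSTL1, -0.0032 to 0.29 for TPM1, -0.62 to 1.21 for CRIM1 and -0.011 to 0.39 for TEAD1. In fibroblast-like nuclei they were -0.34 to 1.20 for TGFB1, -0.20 to 0.40 for TGFB2, -0.23 to 0.50 for TGFB3, -0.21 to 0.19 for TGFBR3, -0.15 to 0.39 for SMAD3, -0.57 to 0.037 for BMPR1A, -0.38 to 0.49 for LDLRAD4 and -0.063 to 0.30 for SMURF2. For the endothelial-like against smooth muscle-like difference they were -0.091 to 0.23 for TGFB3 and -1.27 to 0.19 for SMAD6. For fibroblast-like against smooth muscle-like they were -0.49 to 0.083 for TGFB1, -0.28 to 0.080 for TGFBR1, -0.26 to 0.43 for TGFBR3 and -0.32 to 0.71 for SMAD6, and for endothelial-like against fibroblast-like -0.68 to 0.51 for TGFB1. TGFB3 in endothelial-like nuclei rested on between 10 and 15 UMIs per pig.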
